A study of Mus musculus with 8 samples.

Results

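The 10 antioxidant defence genes *Sod1*, *Sod2*, *Cat*, *Gpx1*, *Gpx4*, *Gclc*, *Gclm*, *Gsr*, *Nfe2l2* and *Txnrd1* were examined in ribosome-associated mRNA of mouse PV+ interneurons. They were taken by gene name from the 45706 genes measured, of which 17495 had enough reads to be tested, and all 10 were among those tested. The rule goes by gene name and uses no value of these data, but the set was chosen with earlier results of these data known. All 8 samples came from PvalbFlp/+;Neurod6Cre/+ mice that had received, at postnatal day 1, a flox-fdio AAV for HA-RPL10a and myc-hM3Dq. The 4 samples numbered as CNO replicates 1 to 4 came from mice injected 5 times over about 48 h with CNO at 1 mg/kg, and the vehicle replicates 1 to 4 came from mice injected with vehicle on the same schedule. The labels give an age of 42 to 70 postnatal days for both groups. According to the methods, the virus was injected into the primary somatosensory cortex, the human synapsin promoter drives the construct, Flp recombinase turns it on in cells that have expressed parvalbumin, and Cre removes it from cells that have expressed Neurod6, such as pyramidal cells. It encodes a ribosomal protein with an HA tag, through which ribosomes were pulled down, and hM3Dq, a receptor that raises the activity of neurons when CNO is bound. Vehicle samples carried the same receptor, so that the groups differed in CNO, and mice that received CNO without the receptor were not analysed here. Every sample pooled tissue from 4 brains, and the p-values below measure the spread between such pools.

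Cells that respire heavily leak superoxide from their mitochondria. Superoxide dismutases turn it into hydrogen peroxide, which catalase, glutathione peroxidases and the thioredoxin-dependent peroxiredoxins remove. Glutathione is made from glutamate, cysteine and glycine, with the glutamate–cysteine ligase as the limiting enzyme, and is recycled by glutathione reductase. NRF2, the product of *Nfe2l2*, binds antioxidant response elements and drives many of these genes, and KEAP1 holds its level down. PV+ interneurons fire fast, hold many mitochondria and are known for their sensitivity to a shortage of glutathione.

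Some of these genes carry a special codon, others a motif in the promoter, and both are shown because they bear on how the genes are translated and regulated. The codon is TGA, which normally ends translation. In *Gpx1*, *Gpx4* and *Txnrd1* it is read as selenocysteine, the amino acid at the active site, and ribosomes have to pass it before they complete the protein. The stretches around it are shown from GENCODE mouse release 21 on GRCm38, all of them in coding exons on the plus strand, with the selenocysteine codon in capitals.
*Gpx1*, chr9:108339436-108339459: aatgtcgcgtctctcTGAggcacc
*Gpx4*, chr10:80054722-80054745: aacgtggcctcgcaaTGAggcaaa
*Txnrd1*, chr10:82896022-82896045: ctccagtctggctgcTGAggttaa
In *Txnrd1* a glycine codon and then the stop codon follow the selenocysteine codon directly, whereas in the glutathione peroxidases the codon lies well inside the reading frame.

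The motif is the core of the antioxidant response element, TGACNNNGC, to which NRF2 binds. It was searched on both strands from 250 bases before to 50 bases after each start site in RefSeq windows on GRCm38.p6. Windows were given for 8 of the 10 genes, and *Gclc* and *Gsr* have no entry in this table. The core was found for 4 of these 8 genes (50%), against 14% of all 27025 genes with a window. Counted by window it was present in 4 of the 13 windows of these genes (30.8%) and in 12.4% of all 32851 windows. All 4 sites lay on the minus strand, upstream of the start site, and are shown on that strand with the core in capitals.
*Nfe2l2*, chr2:75704885-75704913: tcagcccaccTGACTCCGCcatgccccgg
*Gclm*, chr3:122245413-122245441: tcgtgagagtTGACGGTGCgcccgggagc
*Txnrd1*, chr10:82859104-82859132: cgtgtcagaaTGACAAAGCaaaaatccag
*Sod1*, chr16:90220696-90220724: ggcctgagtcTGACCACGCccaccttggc
Counted to the start site, the sites of *Nfe2l2*, *Gclm*, *Txnrd1* and *Sod1* lay 240, 134, 92 and 56 bases upstream in that order. *Nfe2l2* is read from the minus strand and the other 3 genes from the plus strand. For *Txnrd1* the site belongs to 1 of its 3 annotated start sites. The AP-1 site TGANTCA, to which FOS proteins bind, was in 0 of the 13 windows on either strand, so that none overlapped a core. Binding was not measured, and a match is a description of these letters.

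Each sample had between 44064161 and 49413273 counted reads, at which 3 counts correspond to 0.0605 to 0.0671 CPM (reads of a gene relative to the library size). These limits cover counting error only. *Fos*, an immediate early gene of active neurons, was at 49.1 ± 16.4 CPM in the CNO samples against 12.9 ± 2.01 CPM in the vehicle samples (SD, n = 4 each), without overlap between the groups (log2 fold change 1.93, adjusted p = 0.0520 in edgeR's quasi-likelihood test). *Fosb* and *Dusp1* did not overlap either, whereas the log2 fold change of *Npas4* was 0.15. The marker genes of PV+ interneurons were well represented, with *Gad1* at a mean of 1227 TPM (a level corrected for transcript length) and *Pvalb* at 907 TPM, but so were those of pyramidal cells, with *Nrgn* at 959 TPM and *Slc17a7* at 433 TPM. The list of PV+ interneuron markers includes genes of GABAergic interneurons in general, such as *Gad1*, so that its sums are not specific to PV+ cells. One sample stood apart, vehicle replicate 1, in which the TPM of 12 PV+ interneuron markers summed to 1277 against 2712 to 4206 in the other 7 samples, and in which *Trp53bp1* and *Bcar1* took 28.3% of all counts against 17.6% to 23.8%. All 12 PV+ interneuron markers had a higher mean with CNO (median log2 fold change 0.43), 10 of 12 pyramidal cell markers a lower one, and 0 passed an adjusted p of 0.05. Of the other lists, 8 of 10 astrocyte markers (*Slc1a3* the most abundant), 8 of 8 oligodendrocyte markers and 8 of 8 microglia markers had a lower mean with CNO, 8 of 8 blood vessel markers (*Itm2a*) a higher one, and no marker was at 0 in any sample. The summed TPM of these 4 lists ranged from 271 to 403, 605 to 1080, 78.3 to 120.3 and 46.4 to 148 with CNO, and from 328 to 465, 836 to 1073, 101 to 134 and 72.5 to 122 with vehicle, in that order.

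*Gpx4*, the peroxidase that removes lipid peroxides from membranes, was by far the most abundant of the 10 transcripts, and *Nfe2l2*, the regulator, the least. In TPM, averaged over the 8 samples (± SD, n = 8), *Gpx4* had 760.2 ± 148, *Gpx1* 226 ± 43.6, *Sod1* 158 ± 26.3 and *Sod2* 88.6 ± 14.4. The 2 subunits of the glutamate–cysteine ligase followed at 77.9 ± 12.8 for *Gclm* and 49.7 ± 1.00 for *Gclc*, with *Txnrd1* between them at 52.9 ± 5.79. *Gsr* had 41.6 ± 2.60, *Cat* 21.7 ± 1.65 and *Nfe2l2* 5.31 ± 1.51 TPM, so that *Gpx4* exceeded *Nfe2l2* 143-fold. Each gene was above the next one in this order in 8 of 8 samples, apart from *Txnrd1* and *Gclc*, where 6 of 8 samples had *Txnrd1* higher. Among the genes tested, *Gpx4* ranked at percentile 99.4 of mean TPM, *Gpx1* at 96.2 and *Sod1* at 94.0, whereas *Cat* ranked at 60.1 and *Nfe2l2* at 35.1.

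Most of the antioxidant genes had a slightly higher mean with CNO, and no difference passed the test. Of the 10 genes, 9 had a higher mean with CNO and 1, *Nfe2l2*, a lower one, and the log2 fold changes lay between -0.12 and 0.28 with a median of 0.19, where all 17495 genes had a median of 0.0014. At an adjusted p under 0.05 in edgeR's quasi-likelihood test there were 0 of the 10, and 0% of all genes. At an unadjusted p under 0.05 there were also 0 of the 10, where 4.09% of all genes (716) passed. The groups of samples were separate in 0 of the 10, against 2.42% of all genes. With edgeR's likelihood ratio test on robust dispersion and with DESeq2, 0 of the 10 passed an adjusted or an unadjusted p of 0.05. Of all genes, 4.81% and 4.77% passed the unadjusted p in that order, and 15 and 11 genes the adjusted p. The adjusted p was 0.817 for 8 of the genes, 0.822 for *Sod1* and 0.895 for *Nfe2l2*. In mRNA pooled from many cells, fewer PV+ cells in a sample and less RNA per cell cannot be told apart.

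**Figure D1:**
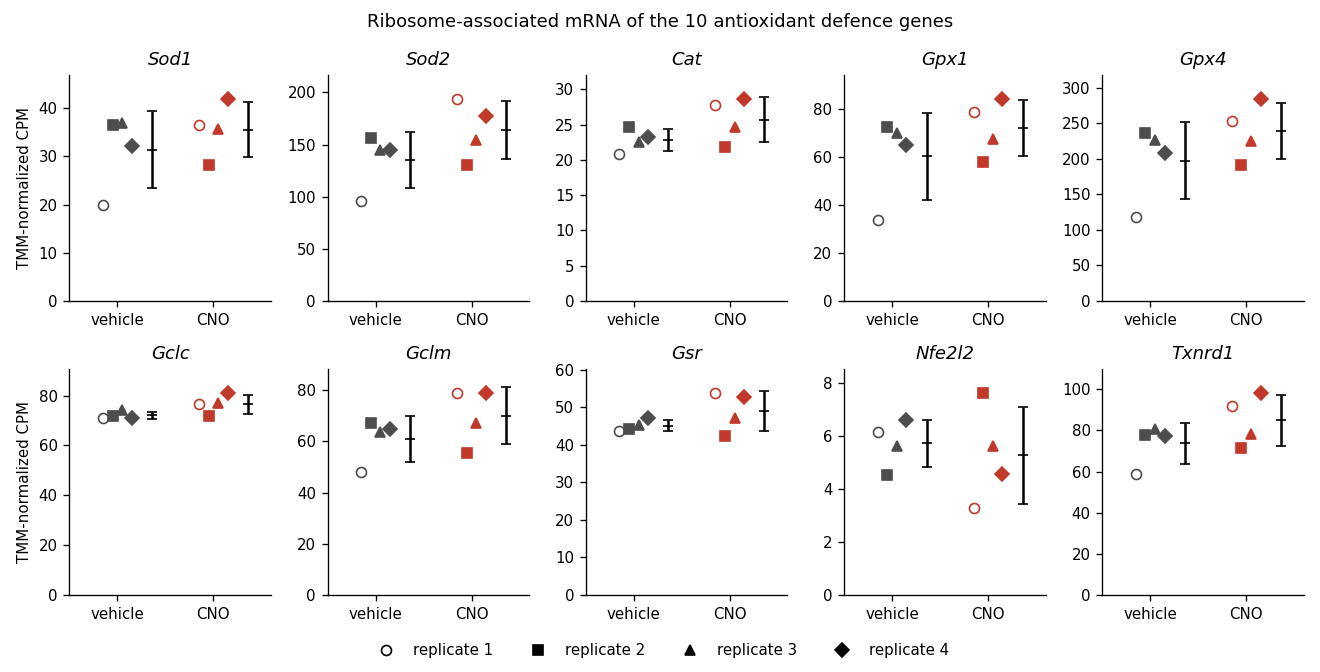
TMM-normalized CPM of each gene in the 4 vehicle (grey) and 4 CNO (red) samples, with the shape of the point giving the replicate number and open circles replicate 1. The black bar is the mean ± SD of the group (n = 4), every vertical axis starts at 0, and the groups overlap in all 10 panels.

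The superoxide dismutases convert superoxide in the cytosol (*Sod1*) and in the mitochondrial matrix (*Sod2*). *Sod1* (ENSMUSG00000022982, chromosome 16, 90220754 to 90226329) had 36.5, 28.1, 35.7 and 41.9 TMM-normalized CPM in CNO replicates 1 to 4, and 19.9, 36.5, 36.9 and 32.2 CPM in vehicle replicates 1 to 4. The 3 higher vehicle samples lay within the range of the CNO samples, and vehicle replicate 1 lay below all others. The log2 fold change was 0.18 (standard error (SE) 0.19, 95% interval -0.23 to 0.59), and the two-sided exact permutation test over the 70 assignments of 4 samples against 4 gave p = 0.571. *Sod2* (ENSMUSG00000006818, chromosome 17, 13006846 to 13040063) had 194, 130.0, 155 and 177 CPM with CNO, and 95.7, 157, 144 and 145 CPM with vehicle. CNO replicates 1 and 4 were above every vehicle sample, but CNO replicate 2 was below 3 of the 4 vehicle samples. Its log2 fold change was, with that of *Gpx4*, the highest of the 10 (0.28, SE 0.17, 95% interval -0.10 to 0.65, exact permutation p = 0.229), a fold of 1.21 with an interval from 0.936 to 1.57. Other genes, among them *Rps6ka2*, share 26.7% of the 31-base stretches of the *Sod2* transcripts, and the copy *Gm8566* holds nearly all of the 5.41% that *Sod1* shares. Reads from such stretches could have been assigned to any gene that has them. The estimated counts of *Sod2* were whole numbers in every sample, and those of *Sod1* nearly so (such as 1719.983 in CNO replicate 1). However, *AC166110.4*, which holds 22% of the *Sod2* stretches, is not among the genes measured. Whole numbers therefore cannot tell whether its reads were counted as *Sod2*. *Sod1* also overlaps *Scaf4* on the opposite strand, and the library kit does not mark strand. However, no 31-base stretch of the *Sod1* transcripts occurs in those of *Scaf4* on either strand. *Scaf4* was counted at 16.2 to 23.9 TPM.

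*Cat* encodes catalase, a peroxisomal enzyme that splits hydrogen peroxide without a cofactor to be recycled. The gene (ENSMUSG00000027187, chromosome 2, 103453849 to 103485160) had 27.9, 21.8, 24.6 and 28.6 CPM in CNO replicates 1 to 4, and 20.9, 24.7, 22.5 and 23.2 CPM in vehicle replicates 1 to 4. CNO replicates 1 and 4 were above every vehicle sample, and replicates 2 and 3 lay among them. The log2 fold change was 0.17 (SE 0.11, 95% interval -0.07 to 0.41, exact permutation p = 0.2).

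The glutathione peroxidases reduce hydrogen peroxide in the cytosol and mitochondria (*Gpx1*) and lipid peroxides (*Gpx4*), and loss of the latter leads to ferroptosis. *Gpx1* (ENSMUSG00000063856, chromosome 9, 108338903 to 108340343) had 79.0, 57.9, 67.5 and 84.2 CPM with CNO, and 33.6, 72.6, 70.1 and 65.2 CPM with vehicle. *Gpx4* (ENSMUSG00000075706, chromosome 10, 80047166 to 80056439) had 253, 192, 226 and 284 CPM with CNO, and 118, 236, 226 and 209 CPM with vehicle. In both genes vehicle replicate 1 was far below all other samples. The remaining 3 vehicle samples lay within the CNO range in both genes. The log2 fold changes were 0.26 for *Gpx1* (SE 0.22, 95% interval -0.22 to 0.73, exact permutation p = 0.4) and 0.28 for *Gpx4* (SE 0.21, 95% interval -0.18 to 0.73, exact permutation p = 0.343). In *Gpx4*, 38.9% of the 31-base stretches are shared, nearly all of them with the processed copy *Gpx4-ps2*. This copy is not among the genes measured, so that the level of *Gpx4* may include reads of it. *Gpx1* shares none. The 3 genes with a selenocysteine codon, *Gpx1*, *Gpx4* and *Txnrd1*, had log2 fold changes of 0.20 to 0.28, inside the range of the other higher genes.

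The glutamate–cysteine ligase consists of a catalytic subunit (*Gclc*) and a modifier subunit (*Gclm*) that raises its activity. *Gclc* (ENSMUSG00000032350, chromosome 9, 77754535 to 77794485) was the most constant of the 10 genes. It had 76.6, 71.7, 76.9 and 81.0 CPM with CNO, and 71.2, 71.7, 74.3 and 71.0 CPM with vehicle. The coefficient of variation was 5.01% with CNO and 2.11% with vehicle, where the median over all genes tested was 14.4% and 15.5%. CNO replicates 1, 3 and 4 were above every vehicle sample, by little, and the log2 fold change was 0.09 (SE 0.08, 95% interval -0.09 to 0.26, exact permutation p = 0.0571). In TPM, the 8 samples of *Gclc* lay between 48.6 and 51.5, with the highest of them in vehicle replicate 1, and the log2 fold change was 0.016 (on log2(TPM + 1), exact permutation p = 0.514). *Gclm* (ENSMUSG00000028124, chromosome 3, 122245557 to 122270732) varied more. It had 78.9, 55.3, 67.1 and 78.7 CPM with CNO, and 47.8, 67.3, 63.5 and 64.8 CPM with vehicle. CNO replicate 2 was below 3 vehicle samples and vehicle replicate 1 below all samples, and the log2 fold change was 0.20 (SE 0.14, 95% interval -0.11 to 0.51, exact permutation p = 0.257). *Gclm* overlaps *Gm17494* on the opposite strand and the pseudogene *Gm6061*, and 6.82% of its 31-base stretches occur in other genes. Among these are the far more abundant *Ppia* (3.55% of the stretches, 1570 to 3540 TPM) and *Gm10123* (3.38%, 78.4 to 231 TPM). The estimated counts of *Gclm* held fractions, such as 3719.53 in CNO replicate 1, so that its level may include reads of other genes.

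*Gsr* encodes glutathione reductase and *Txnrd1* the cytosolic thioredoxin reductase, which return glutathione and thioredoxin to their reduced forms with NADPH. *Gsr* (ENSMUSG00000031584, chromosome 8, 33652523 to 33698163) had 53.8, 42.5, 47.2 and 52.8 CPM with CNO, and 43.8, 44.2, 45.3 and 47.0 CPM with vehicle. CNO replicates 1, 3 and 4 were above the highest vehicle sample and CNO replicate 2 was below the lowest, and the log2 fold change was 0.12 (SE 0.09, 95% interval -0.09 to 0.33, exact permutation p = 0.257). In TPM only CNO replicate 1 (45.3) was above the highest vehicle sample, vehicle replicate 1 (44.5). The log2 fold change was then 0.035 (on log2(TPM + 1), exact permutation p = 0.571). *Txnrd1* (ENSMUSG00000020250, chromosome 10, 82833951 to 82897712) had 91.7, 71.3, 78.5 and 98.2 CPM with CNO, and 58.7, 77.9, 80.7 and 77.4 CPM with vehicle. CNO replicates 1 and 4 were above every vehicle sample, and the log2 fold change was 0.20 (SE 0.13, 95% interval -0.09 to 0.50, exact permutation p = 0.229). *Txnrd1* overlaps *Eid3* on the same strand and 2 genes on the opposite strand. On either strand, 0% of the 31-base stretches of the *Txnrd1* transcripts occur in transcripts of other genes.

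*Nfe2l2*, which encodes NRF2, a protein regulated mostly through its stability, was the 1 gene of the 10 with a lower mean with CNO. The gene (ENSMUSG00000015839, chromosome 2, 75675513 to 75704641) had 3.26, 7.61, 5.61 and 4.54 CPM with CNO, and 6.13, 4.51, 5.63 and 6.58 CPM with vehicle. These values rest on 154 to 360 reads per sample, whereas each of the other 9 genes had at least 889. The CNO samples contained both the lowest and the highest of the 8 values. Its log2 fold change was -0.12 (SE 0.24, 95% interval -0.64 to 0.40, exact permutation p = 0.6), and without CNO replicate 1 it was 0.05. As a fold, the interval reaches from 0.642 to 1.32.

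Vehicle replicate 1 was well below the other vehicle samples in *Sod1*, *Sod2*, *Gpx1*, *Gpx4*, *Gclm* and *Txnrd1*, but not in *Cat*, *Gsr*, *Gclc* and *Nfe2l2*. In TMM-normalized CPM, vehicle replicate 1 was the lowest vehicle sample in 8 of the 10 genes (all but *Gclc* and *Nfe2l2*) and the lowest of all 8 samples in 7. Over all genes tested it was the lowest vehicle sample in 38.9%. In TPM it was the highest vehicle sample for *Gsr* (44.5, against 42.1 in vehicle replicate 4). For *Cat* in TPM (20.2) it was above vehicle replicate 3 (19.9). As a percentage of the mean CPM of the other 3 vehicle samples, vehicle replicate 1 had 48.5% for *Gpx1*, 52.8% for *Gpx4*, 56.4% for *Sod1*, 64.4% for *Sod2*, 73.3% for *Gclm* and 74.6% for *Txnrd1*. *Cat*, *Gsr* and *Gclc* were closer, at 89.1%, 96.2% and 98.4%, and *Nfe2l2* was at 110.0%. In the CNO group replicate 2 was the lowest sample in CPM in 9 of the 10 genes and the highest for *Nfe2l2*, and replicate 4 was the highest in 6. The median deviation of the 10 genes from their mean log2 CPM was 0.22, -0.15, 0.06 and 0.28 in CNO replicates 1 to 4, and -0.43, 0.04, 0.02 and -0.02 in vehicle replicates 1 to 4. The summed TPM of the PV+ interneuron markers was 3772, 2712, 3272 and 4206 in the same CNO samples, and 1277, 3078, 3357 and 3183 in the vehicle samples. Vehicle replicate 1 and CNO replicate 2 had both the lowest marker sums and the lowest median deviations, and CNO replicates 4 and 1 the highest of both. The part of the PV+ interneuron share in these values was not tested beyond the index given below. The pyramidal cell markers summed to 1660, 2005, 1749 and 1462 TPM with CNO, and to 2338, 2204, 1651 and 1769 TPM with vehicle.

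**Figure D2:**
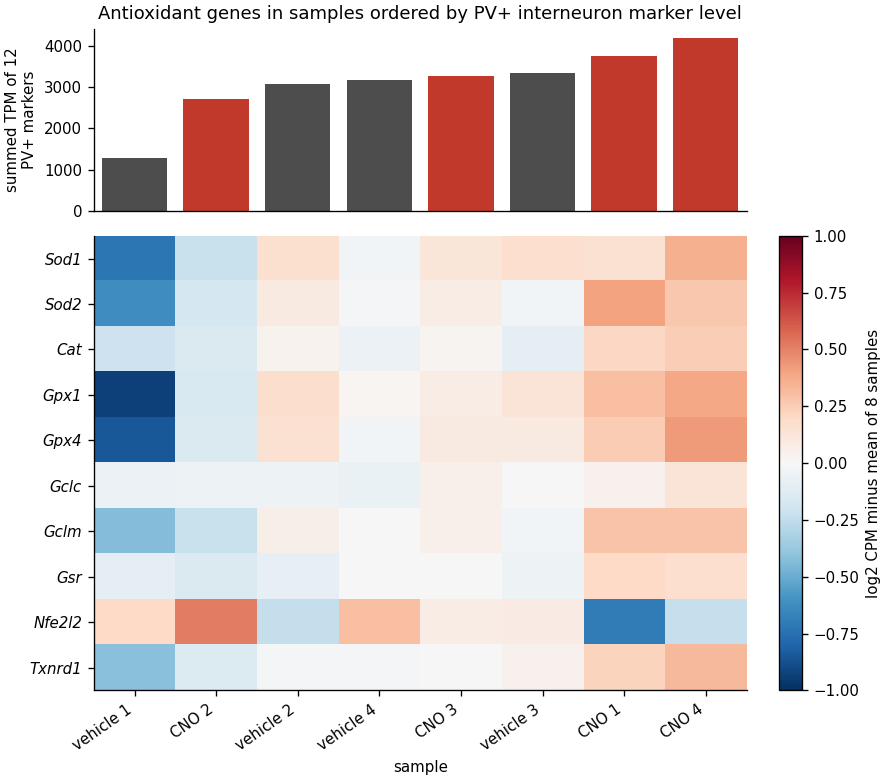
The 8 samples ordered by the summed TPM of 12 PV+ interneuron markers (bars, top, red for CNO and grey for vehicle), above the log2 CPM of each gene minus its mean over the 8 samples (colour, blue below and red above the mean). Vehicle replicate 1, on the left, has the lowest marker sum (1277 TPM) and the lowest values of 7 genes, and *Nfe2l2* is below its mean in CNO replicates 1 and 4, where the other 9 genes are above theirs.

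Replicates 1 and 2 of each group were also set against replicates 3 and 4, a division that the labels do not call a batch. On the log2 scale, replicates 3 and 4 minus 1 and 2 came to between 0.02 (*Nfe2l2*) and 0.27 (*Sod1*) with CNO, and between 0.01 (*Cat*) and 0.45 (*Gpx1*) with vehicle. Without vehicle replicate 1 the vehicle differences lay between -0.12 (*Gpx4*) and 0.43 (*Nfe2l2*).

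The higher means with CNO became smaller without the sample that stood apart. Without vehicle replicate 1 the log2 fold changes lay between -0.08 and 0.13, with a median of 0.09, and those of *Sod1*, *Gpx1* and *Gpx4* were 0.01, 0.05 and 0.09. With a marker index in the model, the mean log2 CPM of the PV+ interneuron markers minus that of the pyramidal cell markers, the median was 0.01, and *Sod1* (-0.10), *Gpx1* (-0.06), *Gpx4* (-0.02) and *Nfe2l2* (0.004) changed sign. The index was added after seeing the data, and it moved with the groups, at 0.58 to 1.70 with CNO and -0.62 to 1.16 with vehicle. Without CNO replicate 2 the median was 0.28, and 3 genes, *Sod2*, *Cat* and *Gclm*, had an unadjusted p under 0.05 in edgeR's quasi-likelihood test, where 9.62% of all genes did. The smallest of these was 0.0338 for *Cat*, with an adjusted p of 0.472. The groups were then separate for *Gclc* and *Gsr*, as for 13.5% of all genes, and without vehicle replicate 3 for *Gclc*, as for 5.17% of all genes. Over the 18 alternatives the adjusted p of the 10 genes ranged from 0.472 to 0.9998.

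**Figure D3:**
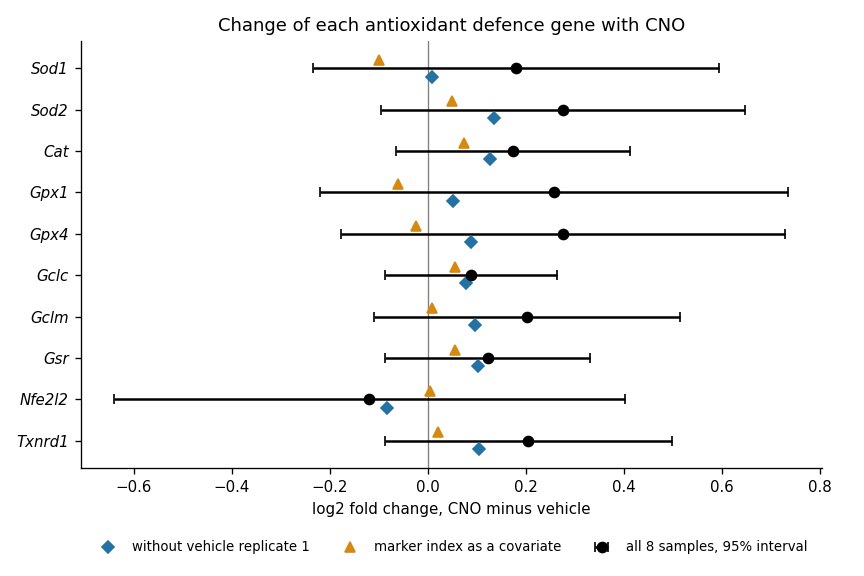
Log2 fold change (CNO minus vehicle) of each gene with all 8 samples (black circles, bars giving the 95% interval), without vehicle replicate 1 (blue diamonds) and with the marker index as a covariate (orange triangles). Every interval contains 0, and the median falls from 0.19 to 0.09 without vehicle replicate 1 and to 0.01 with the index.

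Antioxidant genes outside the set of 10 were taken from 6 further lists with 88 genes, of which 87 were tested and *Gpx2* was too low. With CNO 58 had a higher and 29 a lower mean, at a median log2 difference of 0.08. An unadjusted p under 0.05 was reached by 3 of them (3.45%, against 4.09% of all genes), all higher, and 0 passed after adjustment over all genes. Vehicle replicate 1 was the lowest vehicle sample in CPM in 56 of the 87 (64.4%), against 38.9% of all genes tested. By list this share ran from 45.5% (regulators of NRF2) to 92.3% (thioredoxins and related genes). The most abundant gene of each list is given below, and the genes at the ends of the lists and *Slc7a11*, *Gss*, *Keap1*, *Mafg* and *Mafk* were picked for naming after their values were seen.

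Enzymes that handle superoxide and peroxide were higher with CNO in 13 of 16 genes, with a median of 0.14 and a range from -0.15 (*Prdx6*) to 0.38 (*Prdx3*, the mitochondrial peroxiredoxin). *Prdx5* was the most abundant of them at 733 TPM, close to *Gpx4*, and had a log2 fold change of 0.24. *Ccs*, the chaperone that loads copper into SOD1, had 11.6, 8.81, 9.59 and 12.6 CPM with CNO, and 6.78, 9.12, 9.10 and 8.54 CPM with vehicle. CNO replicates 1, 3 and 4 were above every vehicle sample, and the log2 fold change was 0.34 (SE 0.15, unadjusted p = 0.0411 and adjusted p = 0.817 in edgeR's quasi-likelihood test). Vehicle replicate 1 was again the lowest vehicle sample, as in 13 of the 16 genes, and without it the log2 fold change was 0.25 (unadjusted p = 0.0942). With the marker index it was 0.16 (unadjusted p = 0.193).

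Thioredoxins, glutaredoxins and methionine sulfoxide reductases were higher with CNO in 11 of 13 genes, with a median of 0.20, the lowest being *Txnip*, the thioredoxin inhibitor, at -0.21. *Glrx5*, a mitochondrial protein of iron–sulfur cluster assembly, was the most abundant at 367 TPM, with a log2 fold change of 0.12. *Txnrd3*, the thioredoxin reductase best known from testis, had 6.80, 5.47, 5.68 and 7.72 CPM with CNO, and 4.34, 4.46, 5.73 and 4.96 CPM with vehicle. The samples of the groups overlapped, and the log2 fold change was 0.40 (SE 0.16, unadjusted p = 0.0282 and adjusted p = 0.817 in edgeR's quasi-likelihood test). It was 0.34 (unadjusted p = 0.0617) without vehicle replicate 1, which was the lowest vehicle sample in 12 of the 13 genes, and 0.24 (unadjusted p = 0.121) with the marker index.

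Genes of glutathione synthesis and use were higher with CNO in 12 of 18, with a median of 0.07, from -0.23 (*Gstm7*) to 0.37 (*Gsto1*). *Mgst3*, a membrane-bound glutathione transferase and the most abundant at 192 TPM, came to a log2 fold change of 0.32 (SE 0.25). *Slc7a11*, the cystine importer, was low at 3.34 TPM with a log2 fold change of 0.03, and *Gss*, the second enzyme of the synthesis, was at 24.5 TPM with 0.04. Neither *Slc7a11* nor *Gss* differed from 0 by more than its standard error.

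Among the regulators of NRF2, 7 of 11 were higher and 4 lower, with a median of 0.10. *Keap1* had -0.02 (SE 0.09), and *Sqstm1*, which takes KEAP1 to autophagy and was the most abundant at 371 TPM, had 0.16 (SE 0.17) as log2 fold changes. *Maff*, which encodes a small MAF protein that pairs with NRF2, was the gene of these lists with the largest difference and the one whose groups did not overlap, 1 of 87 genes against 2.42% of all genes. It had 0.509, 0.909, 0.642 and 0.778 CPM with CNO, and 0.425, 0.342, 0.457 and 0.424 CPM with vehicle. All 4 CNO samples were above all 4 vehicle samples, at levels below 1 CPM. The log2 fold change was 0.78 (SE 0.27, unadjusted p = 0.0159 and adjusted p = 0.817 in edgeR's quasi-likelihood test). The exact permutation test gave p = 0.0286, the smallest that 4 samples against 4 can give. Any gene with separate groups reaches this value, and *Maff* was named by a rule that includes separate groups, so that it adds no support. The log2 fold change of *Maff* was 0.79 (unadjusted p = 0.0325) without vehicle replicate 1 and 0.83 (unadjusted p = 0.0247) with the marker index. With 1 sample left out, it ranged from 0.64 without CNO replicate 2 (unadjusted p = 0.0517) to 0.91 without CNO replicate 1 (unadjusted p = 0.00853). It was 0.69 (unadjusted p = 0.0515) without vehicle replicate 2. These p-values are from edgeR's quasi-likelihood test. The related *Mafg* (129 TPM) and *Mafk* (6.40 TPM) had log2 fold changes of 0.01 and -0.02.

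Other targets of NRF2 and enzymes that supply NADPH were split evenly, with 8 of 16 higher and a median of 0.02. *Hmox1* (haem oxygenase 1) was the lowest at -0.27 and *Nqo1* (NAD(P)H quinone dehydrogenase 1) the highest at 0.44, both with a standard error of 0.25 and at about 3 TPM. *Fth1*, the ferritin heavy chain, was the most abundant at 1624 TPM and differed by 0.04 (SE 0.10) on the log2 scale. Genes of selenocysteine insertion and other selenoproteins were higher in 7 of 13, with a median of 0.01, from -0.15 (*Eefsec*, the elongation factor that delivers selenocysteine) to 0.34 (*Selm*). *Sepw1*, the most abundant at 1110.1 TPM, differed by -0.0058 (SE 0.10) on the log2 scale, from 279 ± 7.24 CPM in CNO samples and 280.3 ± 19.4 CPM in vehicle samples (SD, n = 4 each).

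**Figure D4:**
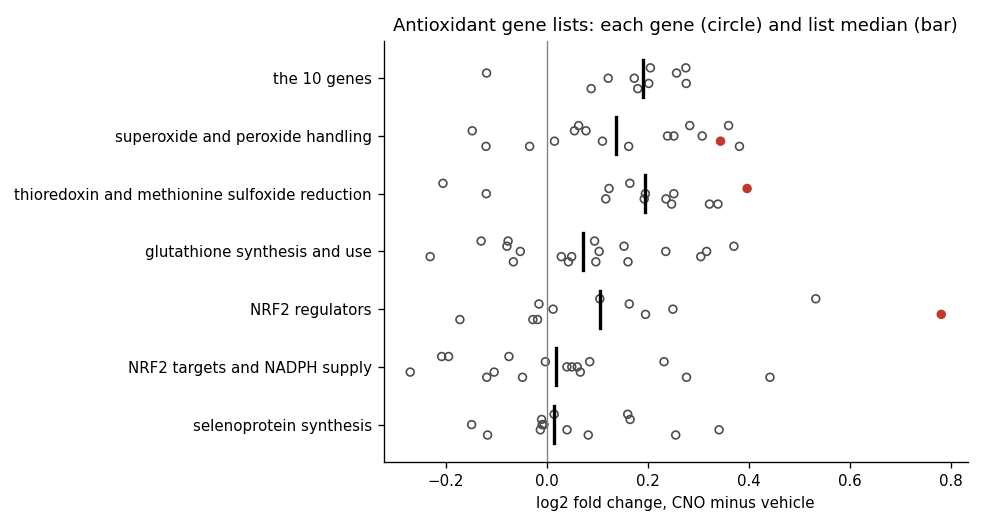
Log2 fold change (CNO minus vehicle) of each gene in the set of 10 and in the 6 further lists (circles, 1 per gene), with the median of each list as a black bar. Filled red circles mark the 3 genes with an unadjusted p under 0.05, *Ccs*, *Txnrd3* and *Maff*, and the list medians lie between 0.01 and 0.20.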

How the data were processed

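Ribosome-associated mRNA of 4 CNO and 4 vehicle samples was sequenced paired-end. Per the labels and methods, the authors ran FastQC and Trim Galore, used STAR and Salmon on GRCm38 and summarised to genes with tximport, within a Nextflow pipeline, and the versions of STAR, Salmon and tximport are not given in the sources used here. The authors deposited estimated counts per gene, without normalization, and TPM, which divides by transcript length and sums to the same total in each sample. Samples were grouped by their titles. Rounded counts entered edgeR 4.0.16 (R 4.3.3). A filter, the one of the study's methods, left out genes that had fewer than 10 counts in at least 4 samples, and the rest were normalized by TMM, compared by the quasi-likelihood test and adjusted by Benjamini-Hochberg over the 17495 genes left. Log2 CPM of single samples used a prior count of 2. Single genes were also compared by two-sided exact permutation over 70 assignments. DESeq2 1.42.0 and limma 3.58.1 on log2(TPM + 1) and log2(TPM + 0.1) were alternatives, as were other scalings, no filter, added terms and each sample left out. The scripts were tested on simulated data.

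The 10 genes, the 6 further lists and the marker lists were chosen with earlier results of these data known. Genes named from the further lists by rule were those with an unadjusted p under 0.05 or separate groups and the most abundant of each list. The ends of the lists and *Slc7a11*, *Gss*, *Keap1*, *Mafg* and *Mafk* were named after their values were seen. Marker genes named were *Pvalb*, *Slc17a7* and the most abundant of each list, some of which are not reported here. Sequence shared between genes was the percent of 31-base stretches of GENCODE release 21 transcripts, which held 45143 of the 45706 identifiers. Replicate numbers were not treated as pairs. Figures used matplotlib 3.10.9 in Python 3.11.15.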

Additional observations from a re-analysis of the deposited data

Results flagged for a closer look

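*Txnrd1* in vehicle replicate 1 (58.7 CPM) lay far below the other vehicle samples (77.4 to 80.7 CPM). The gap to the nearest sample was 0.848 of the range of the group, past the 95% limit of Dixon's test for 4 samples. This test was applied to 20 groups of values, the 10 genes with CNO and with vehicle, and chance alone flags about 1 of 20. The gap was 0.811 for *Gpx1*, 0.806 for *Gclm* and 0.799 for *Sod2* in the same sample, just under that limit. It was 0.812 for *Gclc* in vehicle replicate 3, the highest of its group. Without vehicle replicate 1 the log2 fold change of *Txnrd1* was 0.10 in place of 0.20. Vehicle replicate 1 also had the lowest sum of PV+ interneuron markers (1277 TPM), and *Txnrd1* had a log2 fold change of 0.02 once the marker index was a covariate.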

How the results depend on the processing

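The adjusted p of each of the 10 genes stayed above 0.05 under all 18 alternatives. The 5 changes of direction were those of *Sod1* (-0.10), *Gpx1* (-0.061), *Gpx4* (-0.024) and *Nfe2l2* (0.0041) with the marker index and of *Nfe2l2* without CNO replicate 1. With 1 sample left out, *Nfe2l2* ranged from -0.35 without CNO replicate 2 to 0.052 without CNO replicate 1. Over all genes, an adjusted p under 0.05 was reached by 4 without a filter, 15 with robust dispersion and the likelihood ratio test, 11 with DESeq2 and 3 with replicates 1 and 2 against 3 and 4 as a term. With 1 sample left out there were 0 to 2, the 2 without CNO replicate 1. With 1 sample left out, 0 to 3 of the 10 genes had an unadjusted p under 0.05, the 3 without CNO replicate 2 (9.62% of all genes). Separate groups were then found for 0 to 2, with 2 without CNO replicate 2 (13.5% of all genes) and 1 without vehicle replicate 3 (5.17%). Of the 87 genes in the 6 further lists, 5 had an unadjusted p under 0.05 with RLE size factors, where 4.09% of all genes did. The count was 6 without a filter (4.08% of all genes), 6 with the likelihood ratio test (4.81%) and 5 with DESeq2 (4.77%). With limma it was 1 at either pseudocount (5.37% of all genes at 1 and 5.24% at 0.1). It was 6 with the term for replicates 1 and 2 (6.82% of all genes). With 1 sample left out it was 1 to 10, the 10 without CNO replicate 2 (9.62% of all genes). The cause was not tested. Of the 180 recomputed log2 fold changes of the 10 genes 175 kept their direction. Samples of the same number correlated at 0.026, -0.030, 0.161 and 0.239 in their deviations from the group means, so that the numbers were not taken to pair the samples. With the replicate block 0 genes were called and the median log2 fold change of the 10 genes was 0.20. All of the genes but *Nfe2l2* had at least 889 reads in every sample.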

Other observations

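Ratios between genes of 1 sample were calculated in TPM, and were picked after the values were seen. The ratio of *Gclm* to *Gclc*, the modifier and the catalytic subunit of the glutamate–cysteine ligase, was 1.91, 1.56, 1.49 and 1.74 in CNO replicates 1 to 4, and 1.04, 1.82, 1.51 and 1.49 in vehicle replicates 1 to 4. The means of 1.68 ± 0.19 and 1.47 ± 0.32 (SD, n = 4) did not differ beyond this spread (two-sided exact permutation test, p = 0.314), and the low mean of the vehicle group rested on replicate 1. The ratio of *Gpx4* to *Gsr* was 19.3 ± 1.93 with CNO and 17.4 ± 5.02 with vehicle (SD, n = 4, exact permutation p = 0.686), with vehicle replicate 1 at 10.1 and the other 7 samples at 17.8 to 22.1. The ratio of *Sod1* to *Sod2* was 1.74 ± 0.18 with CNO and 1.84 ± 0.15 with vehicle (SD, n = 4, exact permutation p = 0.4), and vehicle replicate 1, at 1.69, lay among the others. The 3 ratios are 1 family, and the smallest of their p-values was 0.314 before adjustment.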
